A study of Mus musculus with 4 samples.

Results

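The genes described here code for the proteins of the mitochondrial ribosome. They were chosen by name, as every gene symbol in the deposited gene lists made of Mrpl or Mrps and a number. The rule found 75 of 25804 symbols, of which 49 carry a large-subunit name (Mrpl) and 26 a small-subunit name (Mrps). The rule itself uses no measured value, though it was set with earlier results of these data known. The same 75 were followed in the myogenic cells of all 4 libraries and in the macrophage-like cells of 1 of them.

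The mitochondrial ribosome translates the few proteins encoded by the mitochondrial genome, all of them subunits of the respiratory chain and the ATP synthase. Its RNAs come from the mitochondrial genome, while its proteins are encoded in the nucleus, made on cytosolic ribosomes and imported. Some of the proteins have a counterpart in bacterial ribosomes and others are found in mitochondria only. Quiescent muscle stem cells have few mitochondria and low respiration, and both increase when the cells are activated after injury.

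The study set muscle stem cells from tissue beside cultured muscle cells, with 1 droplet-based single-cell library (10x Genomics 3′ chemistry) for each of 4 groups of Pax7-nGFP mice. In these mice a nuclear green fluorescent protein marks cells in which the stem cell gene Pax7 is active. The strain is not given in the sources used here. MPC are myogenic progenitor cells derived in culture from myoblasts of a 16-week-old male. They had 2 passages in myoblast medium and then 5 passages in MPC medium with Forskolin (5 µM), Repsox (5 µM) and CHIR9901 (3 µM), spelled as in the labels. The myoblast library holds cells of a 16-week-old male expanded to passage 2 in myoblast medium. ASC are activated satellite cells sorted as GFP+ from 17 pooled tibialis anterior muscles of males and females aged 18 to 24 weeks, 3 days after injury with cardiotoxin (10 µM). Freshly isolated satellite cells (fiSC) were sorted as GFP+ from limb muscles of 3 pooled males aged 13 weeks. Both sorted groups went through collagenase digestion for isolation, whereas both cultured groups were collected with trypsin. Tissue, isolation, sex, age and library thus cannot be told apart from the group.

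Myogenic cells were the clusters named progenitor-like or muscle differentiation-like from marker genes. They numbered 7151 in MPC, 2002 in myoblasts, 2666 in ASC and 2127 in fiSC, and the ASC library held a further 3031 macrophage-like cells. All 4 myogenic groups had Pax7 progenitor markers: 12, 12, 10 and 14 of 14 reached 20 CPM (counts-per-million, the UMIs of a gene scaled to a common total) in MPC, myoblasts, ASC and fiSC. The 14 macrophage markers all reached that level in the ASC macrophage-like cells, where they summed to 37242 CPM. They summed to 226 CPM in the ASC myogenic cells, and 2 of 14 reached 20 CPM there. The 14 progenitor markers in turn summed to 1474 CPM in the ASC myogenic cells and 287 CPM in the macrophage-like cells, where 2 of 14 reached 20 CPM. The part of shared or free RNA in the ratios between these 2 classes was not tested. The median cell had 12918 UMIs (unique molecular identifiers, each standing for 1 captured RNA molecule) in MPC, 24010.5 in myoblasts, 47998.5 in ASC, 15855 in the macrophage-like cells and 8723 in fiSC. Retained cells of any pair of libraries shared between 2 and 18 barcodes. With 1 library per group no test between groups is possible and no p-value is given. Intervals are 95% exact Poisson intervals of the summed counts, or exact intervals of a ratio of counts, and cover counting error only.

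Promoter stretches of 5 members are shown because the values below refer back to them. They come from the RefSeq promoter table (build GRCm38.p6), run 5′ to 3′ on the gene's own strand, and end at or shortly before the annotated start. Capitals mark exact matches to motifs known from promoters of mitochondrial genes: CCGGAAG, the core bound by ETS factors such as GABPA, and the palindrome of 10 letters bound by NRF1, spelled by the capitals of the Mrpl9 stretch. Mrpl34 is shown as one of the genes with the largest ratio between ASC and fiSC (chr8:71464806-71464925, plus strand), Mrpl43 for its 2 matches between its own start and that of Twnk, the mitochondrial DNA helicase gene on the other strand (chr19:45006443-45006557, minus strand), Mrpl9 for its palindrome (chr3:94443216-94443317, plus strand), and Mrpl48 (chr7:100608302-100608421, minus strand) and Mrps6 (chr16:92058216-92058269, plus strand) as members with low ratios and no match, which most members also lack.
Mrpl34: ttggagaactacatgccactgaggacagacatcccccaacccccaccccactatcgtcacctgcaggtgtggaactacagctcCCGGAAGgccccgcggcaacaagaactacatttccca
Mrpl43: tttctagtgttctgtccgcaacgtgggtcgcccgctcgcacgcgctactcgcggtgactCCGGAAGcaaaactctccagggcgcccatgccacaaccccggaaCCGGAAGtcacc
Mrpl9: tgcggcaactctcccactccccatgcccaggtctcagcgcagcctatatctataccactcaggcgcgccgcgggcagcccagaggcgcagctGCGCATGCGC
Mrpl48: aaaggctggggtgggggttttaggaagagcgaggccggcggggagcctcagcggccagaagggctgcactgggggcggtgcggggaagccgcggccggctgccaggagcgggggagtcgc
Mrps6: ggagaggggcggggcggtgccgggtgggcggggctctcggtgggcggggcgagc

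In the table, 66 of the 75 members had a promoter window of 300 bases, 250 before and 50 after the start. The ETS core was present on either strand in 22 of 66 members, or 33.3%, against 9.12% of all 27025 promoters and 18.8% of the 8577 promoters of genes that reached 10 CPM in these data. It was also present in 39.1% of promoters of cytosolic ribosomal proteins. The NRF1 palindrome was present in 3 of 66 members (4.55%, against 0.977% of all promoters and 2.13% of those at 10 CPM). The extended YY1 motif was present in 4 (6.06%, against 0.899% and 2.27%). Promoters of nuclear respiratory chain subunits held the NRF1 palindrome in 6% and the YY1 motif in 8%, and the ETS core in 22%. The E-box CACGTG, bound by MYC and related factors, was present in 4 (6.06%), near its share of 7.24% in all promoters and below its 10.7% in those at 10 CPM. The motifs share no stretch long enough to be counted for each other. A match is a string of letters and not a shown site, and a window without one says nothing of the factor.

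A second feature shared by many members is a start site close to that of a gene on the opposite strand. Such a start lay within 1000 bases upstream for 24 of 66 members (36.4%), against 11.4% of all promoters and 18.2% of those at 10 CPM. It was 30% in respiratory chain subunit genes and 20.3% in cytosolic ribosomal protein genes. One pair is made of members, Mrpl46 and Mrps11, whose starts on chromosome 7 lie 42 bases apart. Other neighbours include Tcp1, a subunit of the cytosolic chaperonin, 238 bases from Mrpl18, the seryl-tRNA synthetase gene Sars2, 147 bases from Mrps12, and Ndufb5, a complex I subunit gene, 308 bases from Mrpl47.

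All 75 members together were highest in ASC myogenic cells and lowest in fiSC. They summed to 5451 CPM in MPC (95% interval 5437 to 5465), 5871 CPM in myoblasts (5850 to 5892), 8788 CPM in ASC (8772 to 8805), 3699 CPM in ASC macrophage-like cells (3682 to 3716) and 2088 CPM in fiSC (2067 to 2108). These levels are 0.545, 0.587, 0.879, 0.370 and 0.209% of the UMIs of each group. Only MPC and myoblasts lie close to each other in this order, with an interval of their ratio of 0.924 to 0.933. The median member had 60.5 CPM in MPC, 65.7 in myoblasts, 97.0 in ASC, 37.8 in the macrophage-like cells and 18.4 in fiSC.

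Large-subunit and small-subunit genes kept nearly the same proportion. The summed Mrpl genes were 2.15 times the summed Mrps genes in MPC, 2.16 times in myoblasts, 2.26 times in ASC, 2.14 times in macrophage-like cells and 2.07 times in fiSC. The intervals of these ratios are 2.14 to 2.16, 2.14 to 2.18, 2.25 to 2.27, 2.12 to 2.17 and 2.03 to 2.12. The range over the 5 groups is thus small beside the 4.21-fold range of the sum.

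**Figure D1:**
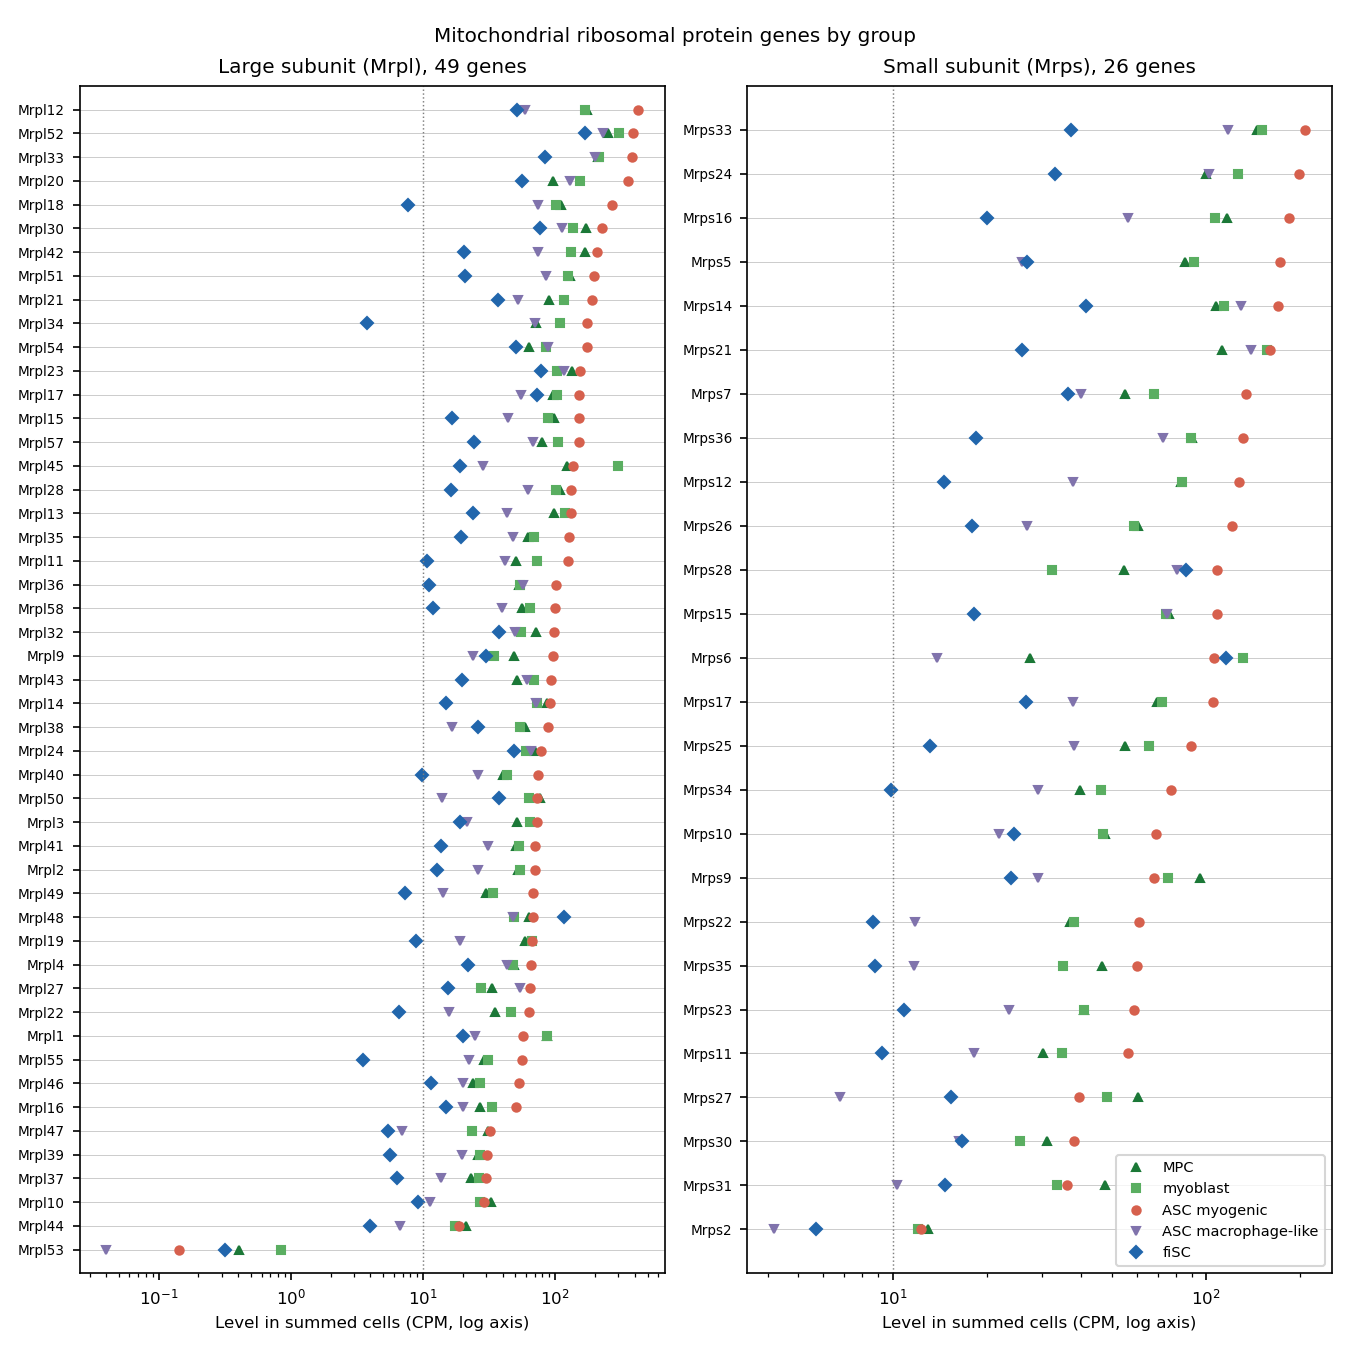
Level of each of the 75 members (CPM, log axis) in the summed cells of 5 groups, with large-subunit genes on the left and small-subunit genes on the right, ordered by level in ASC. The dotted line marks 10 CPM. The fiSC point is the lowest of the row in 61 of 75 genes and the ASC point the highest in 63.

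Taken gene by gene, 63 of 75 members had their highest level in ASC, 8 in MPC, 3 in myoblasts and 1, Mrpl48, in fiSC. The lowest level was in fiSC for 61, in macrophage-like cells for 13 and in myoblasts for 1, Mrps28. At least 10 CPM was reached by 74 members in MPC, myoblasts and ASC, by 70 in macrophage-like cells and by 57 in fiSC. The gene that stayed below 10 CPM everywhere was Mrpl53, with 0.405, 0.835, 0.142, 0.0401 and 0.316 CPM in MPC, myoblasts, ASC, macrophage-like cells and fiSC. These values rest on 42, 42, 18, 2 and 6 UMIs. Mrpl53 shares exon sequence with the gene model Gm42688 on the same strand, which had between 1 and 3 UMIs in each group.

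The members with the highest mean level over the 4 libraries were Mrpl52, Mrpl33, Mrpl12, Mrpl20 and Mrpl30, all large-subunit genes. Levels of different genes are shares of captured 3′ ends, not scaled by length, and give no order of transcript numbers. Mrpl52, a protein specific to mitochondria, had 252 CPM in MPC, 303 in myoblasts, 385 in ASC, 230 in macrophage-like cells and 169 in fiSC. Mrpl33 had 209.7, 215, 379, 198 and 83.2 CPM in the same groups. Mrpl12, the stalk protein that also binds the mitochondrial RNA polymerase, had 175, 167, 422, 58.7 and 51.1 CPM. All 3 genes were highest in ASC and lowest in fiSC, and Mrpl12 set ASC apart from the other groups more than the other two did.

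The order of the members by level was much the same in the cultured and injured groups and less so in fiSC. Spearman's rho across the 75 genes, which share their libraries and depth and are not replicates, lay between 0.852 and 0.898 among MPC, myoblasts and ASC. It lay between 0.741 and 0.837 between these groups and the macrophage-like cells. With fiSC it was 0.635 for MPC, 0.617 for myoblasts, 0.624 for ASC and 0.594 for macrophage-like cells. The fiSC levels were read at the lowest depth, where 10 CPM is 189.8 UMIs, and the part of depth in this was not tested.

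The clearest difference was between injury-activated and freshly isolated satellite cells. A gene was counted as higher or lower where the ratio of CPM + 5 was at least 2-fold and the higher group had at least 10 CPM, a rule of size and not a test. Of the 74 members that reached 10 CPM in either group, 66 were at least 2-fold higher in ASC, where 24.3% of the 8992 genes measured in this comparison were higher, and 0 were lower, against 23.6% of all genes. The median log2 ratio was 2.09 over the members and 0.03 over all genes. Of the 74, 17 reached 10 CPM in ASC only and so could not be counted as lower. Among the 57 that reached it in fiSC as well, 50 were at least 2-fold higher, where 18.3% of 6319 such genes were. Without any minimum the median over all 75 was 2.06.

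The largest ratios belonged to Mrpl18 and Mrpl34. Mrpl18 has been described as a chaperone for the import of 5S RNA into mitochondria. It had 268 CPM in ASC (265 to 271) and 7.69 CPM in fiSC (6.49 to 9.04). Its ratio of CPM was 34.9 (29.6 to 41.3) and its log2 ratio of CPM + 5 was 4.43. Mrpl34, a small basic protein with a bacterial counterpart, had 174 CPM in ASC (172 to 177) and 3.79 CPM in fiSC (2.97 to 4.78), a log2 ratio of 4.35. Only 146 and 72 UMIs of these genes were counted in all 2127 fiSC. When every cell was thinned to 2000 UMIs, Mrpl18 was seen in 39.2% of ASC cells and 1.39% of fiSC, and Mrpl34 in 28.5 and 0.720%. Without thinning the shares were 95% of ASC cells and 5.50% of fiSC for Mrpl18, and 93.2 and 2.91% for Mrpl34. The next in size were Mrpl42 (log2 ratio 3.05), Mrpl11 (3.04) and Mrpl51 (2.97).

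A few members did not share the difference. Mrpl48 had 67.8 CPM in ASC (66.4 to 69.2) and 116 CPM in fiSC (112 to 121), a log2 ratio of -0.74. Mrps6, the counterpart of bacterial S6, had 106 CPM in ASC (104 to 108) and 116 CPM in fiSC (111 to 121), a log2 ratio of -0.12. Mrps28 had 108 CPM in ASC and 86.0 CPM in fiSC, a log2 ratio of 0.32. These 3 and Mrpl24 (0.64) and Mrps2 (0.70) had the lowest ratios of the 74. Mrpl48 and Mrps6 had none of the 4 motifs in their promoter windows. They share this with others of the 35 of 66 members without a motif, among them Mrpl42 and Mrpl11 with 2 of the largest ratios. The measured members with the NRF1 palindrome (3), the YY1 motif (4), the ETS core (21) or the E-box (4) were all at least 2-fold higher in ASC. Most members without them were too: 55 of 62 without NRF1, 54 of 61 without YY1, 37 of 44 without ETS and 54 of 61 without the E-box. A link between motif and ratio was not tested. Mrps28 was not in the table.

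**Figure D2:**
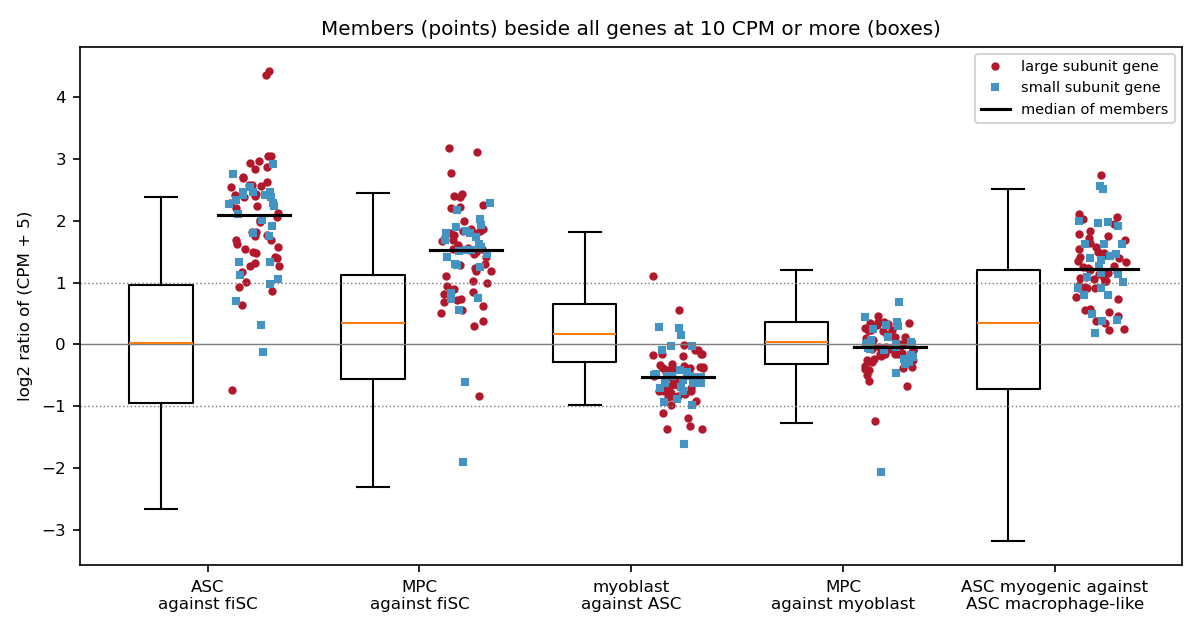
Log2 ratio of CPM + 5 for each member that reached 10 CPM in either group (points, large-subunit genes as red circles and small-subunit genes as blue squares) in 5 comparisons, beside boxes for all genes at that level (quartiles, with whiskers at the 5th and 95th percentiles). Dotted lines mark 2-fold. The members lie above the middle of all genes in ASC against fiSC (median 2.09), MPC against fiSC (1.52) and ASC myogenic against ASC macrophage-like cells (1.22), below it in myoblasts against ASC (-0.53) and at it in MPC against myoblasts (-0.04).

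Mrps6 lies at the same locus as Slc5a3, the gene of the sodium and myo-inositol cotransporter, and the 2 genes overlap in exons on the same strand in a GENCODE annotation of build GRCm38. Slc5a3 had 7.07 CPM in MPC, 54.6 in myoblasts, 17.1 in ASC, 3.55 in macrophage-like cells and 90.0 in fiSC. Mrps6 had 27.5, 131, 106, 13.8 and 116 CPM in the same groups. Both genes were lowest in macrophage-like cells and next lowest in MPC. How reads in the shared exons were assigned is not given in the sources used here, and its part in the Mrps6 values was not tested. Of the other members, 4 more (Mrpl3, Mrpl53, Mrps24 and Mrps34) overlap another listed gene on the same strand and 19 overlap one on the opposite strand, among them Mrpl48 with Rab6a and Mrpl18 with Tcp1. The strand setting used for counting is not given either, so reads of such pairs cannot be told apart with certainty.

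Members with a bacterial counterpart and members specific to mitochondria had similar ratios between ASC and fiSC. Of the 44 with a counterpart, 39 were at least 2-fold higher in ASC, with a median log2 ratio of 2.09. Of the 29 measured that are specific to mitochondria, 26 were higher, with a median of 2.02. Mrps36, since described as a part of the 2-oxoglutarate dehydrogenase complex, was left out of both classes and had a log2 ratio of 2.54. By subunit name, 44 of 48 Mrpl genes (median 2.04) and 22 of 26 Mrps genes (median 2.18) were higher.

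By promoter, all 21 measured members with an ETS core were at least 2-fold higher in ASC (median 2.33), as were 37 of the 44 without one (median 1.82). The classes were set side by side after the values were known and no test was made. Of the neighbours with a close start on the other strand, 16 are no members and reached 10 CPM in any of the 5 groups. Of these 16, 7 were at least 2-fold higher in ASC and 0 lower. Klc4, Ighmbp2, Eme1 and Gga3 stayed below 10 CPM in both ASC and fiSC and so could not be counted by the size rule. By that rule 24.3% of all genes were higher and 23.6% lower, so these shares are not on the same footing. The median log2 ratio of all 16 neighbours was 0.85. Tcp1 had a log2 ratio of 1.28 beside 4.43 for Mrpl18, and Ndufb5 had 2.15 beside 1.82 for Mrpl47. Twnk had 0.48 beside 1.97 for Mrpl43. For the pair within the list the values were 1.82 for Mrpl46 and 2.11 for Mrps11.

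The 2 groups also differed in cell cycle, depth and RNA make-up. By 20 G2/M genes after thinning, 86.8% of ASC myogenic cells and 0.480% of fiSC were cycling. Among non-cycling cells alone (349 ASC and 2073 fiSC), 64 members were at least 2-fold higher in ASC, where 23.7% of 8980 genes were, and the median log2 ratio was 2.00 over the members and 0.04 over all genes. The non-cycling cells had 8418 CPM of summed members in ASC and 2090.5 CPM in fiSC. In the progenitor-like cells alone 66 members were higher, where 24.1% of 8973 genes were, with a median of 2.11 over the members and 0.01 over all genes.

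At equal depth the difference was visible in single cells. After thinning to 2000 UMIs the median cell held 11 UMIs of the members in MPC, 12 in myoblasts, 17 in ASC, 7 in macrophage-like cells and 4 in fiSC. These came from a median of 10, 10, 14, 6 and 3 different members. No member was seen in 1 of 6950 thinned MPC, 2 of 2000 myoblasts, 1 of 2653 ASC cells, 7 of 3012 macrophage-like cells and 98 of 2083 fiSC (4.70%). Without thinning the median cell showed 40, 55, 70, 33 and 12 different members. The thinning left out 201, 2, 13, 19 and 44 shallower cells.

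**Figure D3:**
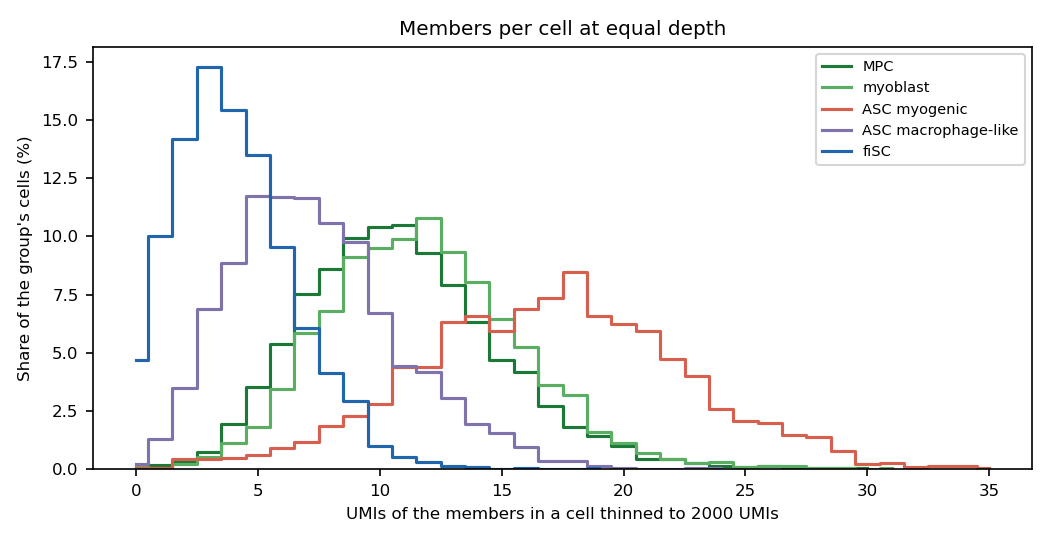
Share of cells (percent of each group) by the number of UMIs of the 75 members in a cell thinned to 2000 UMIs, up to 35, for 5 groups. The medians are 11 in MPC, 12 in myoblasts, 17 in ASC myogenic cells, 7 in ASC macrophage-like cells and 4 in fiSC, and the ASC and fiSC curves overlap little.

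Clusters of ASC and fiSC myogenic cells did not overlap in level, and those of MPC and of myoblasts did not overlap those of fiSC either. Myoblast and ASC clusters nearly met, at 6697 and 6757 CPM. The 5 myogenic clusters of ASC had between 6757 and 10256 CPM of summed members, and the 4 progenitor-like clusters of fiSC between 1734 and 2356 CPM. The myogenic clusters of MPC (5040 to 8392 CPM) overlapped both those of myoblasts (5388 to 6697 CPM) and those of ASC. The overlap with ASC came from 1 MPC cluster of 166 cells with a median of 1678 UMIs (8392 CPM). The next highest myogenic cluster of MPC had 6367 CPM. The ASC cluster with the highest sum (589 cells) had Phgdh and Srm, which make serine and spermidine, and Mrpl12 itself among its leading genes. The members had been left out of the genes used for clustering. The lowest ASC myogenic cluster had 256 cells and a median of 17067.5 UMIs, well below the library's other myogenic clusters, and 59.3% of its cells were cycling.

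**Figure D4:**
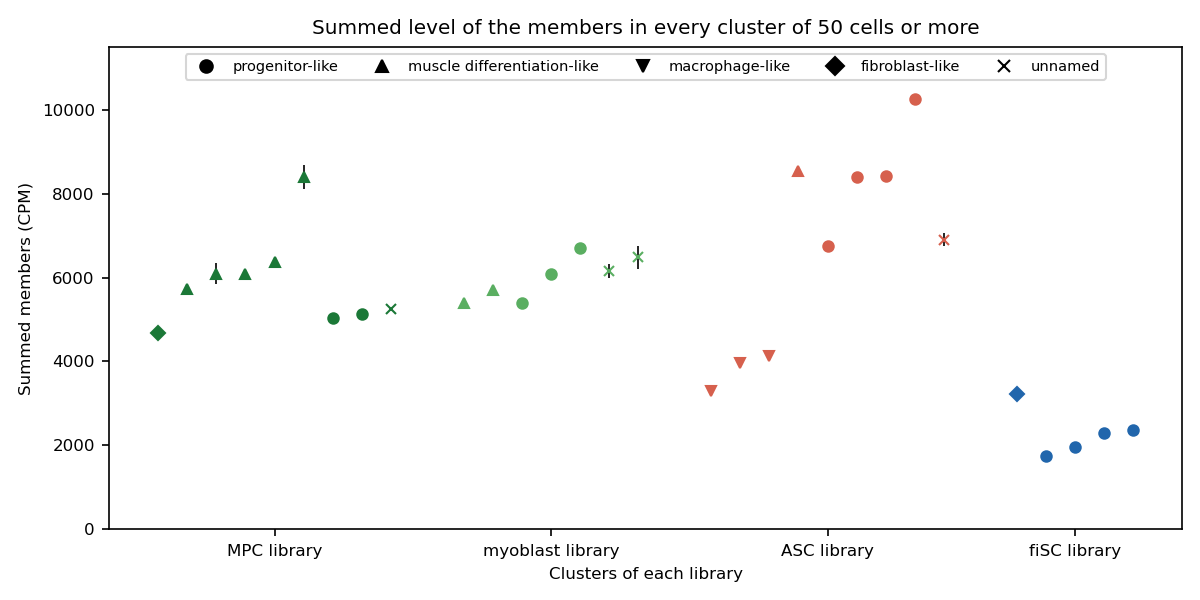
Summed level of the 75 members (CPM) in every cluster of at least 50 cells, by library, with the symbol giving the cluster's name and bars the 95% counting interval. The 5 myogenic ASC clusters lie between 6757 and 10256 CPM, the 3 macrophage-like ASC clusters between 3304 and 4124 CPM and the 4 progenitor-like fiSC clusters between 1734 and 2356 CPM.

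Single members varied within fiSC in ways the sum did not show. Mrps6 had 69.8, 82.5, 205 and 65.0 CPM in fiSC clusters 1 to 4. Its highest value was in cluster 3, led by the heat shock genes Dnajb1, Hspe1, Hspd1 and Hspb1. Mrpl12 had 33.8, 38.8, 26.2 and 89.0 CPM in the same clusters, highest in cluster 4, which had Myod1 and the nucleolar gene Nop16 among its leading genes. Mrpl18 had 25.9, 4.1, 6.3 and 3.5 CPM and Mrpl34 had 15, 0.87, 2.8 and 1.7 CPM, both highest in cluster 1, which had the highest Pax7 level (1864 CPM). Mrpl48 stayed between 111 and 123 CPM in all 4. The 4 clusters come from 1 library, so these values are descriptions.

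The MPC and myoblast libraries had nearly the same levels of the members. Between them 0 of 74 members were at least 2-fold higher in MPC (6.42% of 9403 genes were) and 2 were lower (7.42% of genes were). The median log2 ratio was -0.04 over the members and 0.04 over all genes, and 33 members were above 0 and 41 below. The sign of so small a median is not fixed: it was 0.05 with a total that leaves out ribosomal protein and mitochondrial UMIs and 0.05 in non-cycling cells. Depth differed between the 2 libraries, and 57.4% of MPC and 49.5% of myoblasts were cycling.

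The 2 members past the size rule were Mrps6 and Mrpl45. Mrps6 had 27.5 CPM in MPC (26.5 to 28.5) and 131 CPM in myoblasts (128 to 134), a log2 ratio of -2.06, and its neighbour Slc5a3 had a log2 ratio of -2.3. Mrpl45, which holds the ribosome at the inner membrane, had 122 CPM in MPC (119.97 to 124) and 296 CPM in myoblasts (292 to 301), a log2 ratio of -1.25. Mrpl45 was highest in myoblasts, and had 136 CPM in ASC, 28.6 CPM in macrophage-like cells and 19.1 CPM in fiSC. Its lowest value in a myoblast cluster of at least 50 cells was 192 CPM, and its highest in any such cluster of the other libraries was 169 CPM. Mrpl20 (-0.67), Mrpl34 (-0.59) and Mrpl11 (-0.49) followed. At the other end stood Mrps28 with 54.7 CPM in MPC and 32.2 CPM in myoblasts (log2 ratio 0.68), then Mrpl9 (0.45), Mrps31 (0.45), Mrps35 (0.37) and Mrpl42 (0.36).

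Within MPC the members were higher in differentiating cells than in progenitors, and slightly lower in the other 2 libraries. The muscle differentiation-like and progenitor-like cells had 5978 and 5096 CPM of summed members in MPC. The 2 classes had 5578 and 5927 CPM in myoblasts and 8543 and 8872 CPM in ASC. The ASC class is 1 cluster named on 7 of 20 differentiation markers, and over all ASC myogenic cells 4 of these 20 reached 20 CPM (549 CPM in all), against 19 of 20 in myoblasts (13024 CPM) and 20 of 20 in MPC (11119 CPM). With 1 library each, and clusters built from the same cells, these are descriptions. The myogenic clusters of MPC lay between 5040 and 8392 CPM. The highest was a cluster of 166 cells with a median of 1678 UMIs and 0.586% mitochondrial UMIs, against medians from 9846 to 17825 UMIs in the larger ones.

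Set against ASC, the myoblasts had moderately lower levels. Of 74 members 69 lay below 0, with a median log2 ratio of -0.53, whereas the median over all genes was 0.17. At least 2-fold lower were 6 members, where 4.91% of 9081 genes were lower, and 1 was higher, where 14.7% were. The 6 were Mrps28 (32.2 CPM in myoblasts, 108 CPM in ASC, log2 ratio -1.61), Mrpl9 (34.3 and 97.0 CPM, -1.38), Mrpl18 (101 and 268 CPM, -1.36), Mrpl12 (167 and 422 CPM, -1.31), Mrpl20 (155 and 358 CPM, -1.18) and Mrpl27 (27.3 and 64.7 CPM, -1.11). The 1 higher was Mrpl45 (296 CPM in myoblasts, 136 CPM in ASC, 1.10), followed by Mrpl1 (0.55), Mrps6 (0.29), Mrps27 (0.26) and Mrps9 (0.15). All 6 lower members have a bacterial counterpart, and Mrpl45 was classed as specific to mitochondria. The median log2 ratios of the 2 classes were close, at -0.55 for the 44 with a counterpart and -0.50 for the 29 measured that are specific to mitochondria. The summed members with a counterpart were 0.626 times as high in myoblasts as in ASC (0.623 to 0.630). Those specific to mitochondria, whose sum includes Mrpl45, were 0.752 times as high (0.747 to 0.757). Scaling by edgeR's TMM factors moved the median of all genes by -0.28, and 20 members were then at least 2-fold lower (9.05% of genes were) and 0 higher (10.4% of genes were). Relative to the median of all genes the members lay at -0.71 with the total and at -0.70 with TMM.

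Most members were also higher in MPC than in fiSC. The fiSC library is the one already set against ASC, so the values of the 2 comparisons are not independent. Of 74 members 54 were at least 2-fold higher in MPC (28.7% of 9606 genes were) and 1 was lower (16.7% of genes were), with medians of 1.52 over the members and 0.34 over all genes. Of the 57 that reached 10 CPM in both groups, 38 were higher, where 18.9% of 6637 such genes were. The highest ratios were those of Mrpl18 (110 CPM in MPC, 7.69 CPM in fiSC, 3.18) and Mrpl34 (70.9 and 3.79 CPM, 3.11), then Mrpl42 (2.78), Mrpl28 (2.43) and Mrpl45 (2.40). Mrps6 was the 1 lower (27.5 CPM in MPC, 116 CPM in fiSC, -1.89), and Mrpl48 (-0.84) and Mrps28 (-0.61) also lay below 0, with Mrpl54 (0.30) and Mrpl17 (0.38) next. The summed members were 2.61 times as high in MPC (2.58 to 2.64).

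Within the ASC library the myogenic cells had more of the members than the macrophage-like cells beside them. All 74 measured members lay above 0, and 51 were at least 2-fold higher in the myogenic cells (31.0% of 9075 genes were) and 0 lower (20.5% of genes were). Of the 74, 4 reached 10 CPM in the myogenic cells only and so could not be counted as lower. Among the 70 that reached it in both classes, 48 were higher, where 22.5% of 5824 such genes were, and 0 lower, where 14.8% were. The median log2 ratio was 1.22 over the 74 members and 0.35 over all genes, and the sum was 2.38 times as high (2.36 to 2.39). Of these cells 86.8% of the myogenic and 8.96% of the macrophage-like ones were cycling. Cycling and non-cycling cells differed little in either class, with 8826 and 8418 CPM of summed members in myogenic cells and 3753 and 3694 CPM in macrophage-like cells. In non-cycling cells alone 44 members were at least 2-fold higher, where 30.5% of 9125 genes were, with a median of 1.16 over the members and 0.36 over all genes. TMM scaling moved the median of all genes by -0.45, to -0.10, and left 27 members at least 2-fold higher (21.5% of genes were) and 0 lower (27.8% of genes were), with a median of 0.80.

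The largest of these ratios was that of Mrpl12, with 422 CPM in ASC myogenic cells (419 to 426) and 58.7 CPM in ASC macrophage-like cells (56.6 to 60.9), a log2 ratio of 2.74. Mrps6 had 106 and 13.8 CPM (2.56), and Slc5a3 had 17.1 and 3.55 CPM. Mrps5, Mrpl38 and Mrpl45 followed with log2 ratios of 2.52, 2.12 and 2.06. The smallest ratios were those of Mrps21 (159 CPM in myogenic cells, 140 CPM in macrophage-like cells, 0.19), Mrpl27 (0.23), Mrpl24 (0.25), Mrpl14 (0.34) and Mrps14 (0.38). At 2000 UMIs per cell, 18.3% of the myogenic and 2.62% of the macrophage-like cells had a UMI of Mrps6, and the unthinned shares were 90.1 and 18.6%.

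The other mitochondrial gene lists did not all differ as the members did. The lists were written from textbook functions and are described by counts with the same size rule. By that rule 24.3% of all genes were higher in ASC than in fiSC and 23.6% lower. In ASC against fiSC, 56 of 61 nuclear genes for respiratory chain subunits were at least 2-fold higher and 0 lower (median 2.01). So were 6 of 8 mitochondrial ribosome proteins whose symbols lie outside the naming rule (median 1.81), among them Gadd45gip1 (2.78) and Mrps18c (2.74), while Dap3 (0.93) and Ptcd3 (0.50) did not reach 2-fold. Of 17 genes of mitochondrial mass and import 12 were higher (median 1.65), with Tomm22, an import receptor, at 3.07 and Vdac1, the outer membrane channel, at 2.94. The lowest of these 17 were Hspe1 (-0.34) and Hspd1 (0.20), and the summed list was 1.54 times as high in ASC. For cytosolic ribosomal proteins the counts were 26 of 82 higher (31.7%) and 1 lower (median 0.78).

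The rest of the mitochondrial translation machinery had smaller median ratios between ASC and fiSC. The elongation factor Tufm (85.4 CPM in ASC, 8.11 CPM in fiSC, log2 ratio 2.79) and its exchange factor Tsfm (79.8 and 5.32 CPM, 3.04) were among the 3 of 10 translation factors at least 2-fold higher, and the list's median was 0.65. Of 14 assembly factors 5 were higher and 1, the rRNA methyltransferase Nsun4 (-1.02), was lower (median 0.67). The median of 11 mitochondrial tRNA synthetases was 0.76, and Iars2 had a log2 ratio of 1.16. Of 14 genes of mitochondrial transcription and RNA handling 3 were higher (median 0.36), led by the RNA-binding Slirp (2.52) and the DNA-binding Ssbp1 (2.18). That share, 21.4%, lies below the 24.3% of all genes that were higher. The shares were 30% for the translation factors and 35.7% for the assembly factors. Many of these genes reached 10 CPM in 1 of the 2 groups only. Among those that reached it in both, 1 of 5 translation factors, 0 of 6 assembly factors and 2 of 12 RNA handling genes were higher. Of all such genes 18.3% were. None of those 6 assembly factors was lower either.

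The 13 mRNAs of the mitochondrial genome, which these ribosomes translate, stood apart from the members. In ASC against fiSC 2 were at least 2-fold higher, mt-Atp8 (1.21) and mt-Nd3 (1.02), and 1 was lower, mt-Nd6 (-1.09), with a median of 0.08. These are 15.4% and 7.69%, against 24.3% and 23.6% of all genes. In myoblasts against ASC 13 of 13 lay above 0 and 6 (46.2%, against 14.7% of all genes) were at least 2-fold higher (median 0.98), while the members' median was -0.53. With TMM scaling that median was 0.71. Their sum was 38588 CPM in MPC, 49200 CPM in myoblasts, 25702 CPM in ASC, 14967 CPM in macrophage-like cells and 27621 CPM in fiSC. The median share of mitochondrial UMIs per cell was 3.83, 5.93, 3.19, 1.61 and 3.40%. Cells over 10% had been removed as a quality filter, which bears on these sums.

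**Figure D5:**
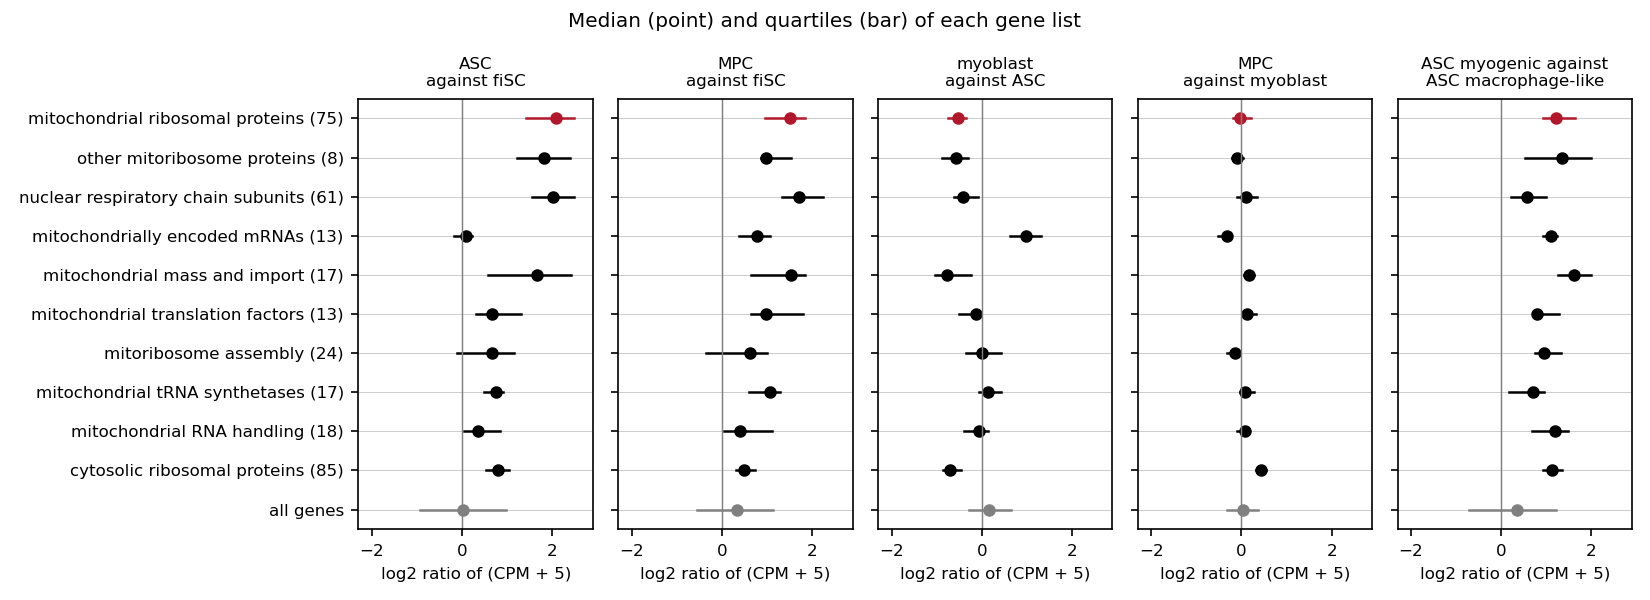
Median (point) and quartiles (bar) of the log2 ratio of CPM + 5 for the members (red), 9 other gene lists (black) and all genes (grey) in 5 comparisons. The respiratory chain subunits lie beside the members in ASC against fiSC (medians 2.01 and 2.09), and the mitochondrially encoded mRNAs lie on the other side of 0 in myoblasts against ASC (0.98 against -0.53).

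In the ASC library the respiratory chain and the members parted. Between myogenic and macrophage-like cells 13 of 61 respiratory chain genes were at least 2-fold higher and 2 lower (median 0.58). That share, 21.3%, lies below the 31.0% of all genes that were higher, while 51 of 74 members were. The chain's extremes were Cyc1, cytochrome c1 (1.90), and Ndufa1, a complex I subunit (-1.60). With TMM scaling 1 of the 61 was higher and 2 lower (median 0.12). Cytosolic ribosomal proteins were higher for 57 of 82 (median 1.13; 14 of 82 and 0.65 with TMM scaling), and mitochondrial mass and import for 15 of 17 (median 1.62), led by the chaperonin Hspd1 (3.38).

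Between MPC and myoblasts most lists had few members past 2-fold, as did all genes (6.42% higher and 7.42% lower). The median log2 ratio was 0.09 for the 61 respiratory chain genes, 0.17 for mitochondrial mass and import, -0.32 for the mitochondrially encoded mRNAs, 11 of 13 of them below 0, and 0.43 for the cytosolic ribosomal proteins, 79 of 82 of them above 0. None of the 8 other mitochondrial ribosome proteins, 10 translation factors, 13 assembly factors or 12 tRNA synthetases measured was 2-fold different. Beyond them 1 of the 61, Sdhd of complex II (1.02), and 1 of the 13 mRNAs, mt-Nd6 (1.54), were higher in MPC.

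Genes known to regulate mitochondrial gene expression did not differ in 1 direction. In ASC against fiSC, 2 of 10 measured were at least 2-fold higher, the nuclear receptor Esrra (30.7 CPM in ASC, 1.95 CPM in fiSC, 2.36) and the coactivator Ppargc1b (34.6 and 5.11 CPM, 1.97). Another 5 were lower, with Myc (24.9 CPM in ASC, 411 CPM in fiSC, -3.80) and Esrrg (1.39 and 81.2 CPM, -3.75) at the end. The shares were 20% higher and 50% lower, against 24.3% and 23.6% of all genes. Of the 7 that reached 10 CPM in both groups, 0 were higher and 4 lower, where 18.3% and 20.7% of such genes were. Between MPC and myoblasts Ppargc1b was higher (94.0 CPM in MPC, 41.5 CPM in myoblasts, 1.09) and Ppargc1a lower (2.22 and 14.9 CPM, -1.46). In ASC myogenic against macrophage-like cells Ppargc1b (2.21) and Myc (1.72) were the highest of the list.

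The genes whose levels followed those of the summed members most closely over the 5 groups were looked for among 3507 genes with a mean of at least 50 CPM. Likeness was the root mean square difference of centred log2 levels. The 10 closest were Snrpc (0.08), Cnih1 (0.09), Polr2i (0.09), Arl6ip4 (0.10), Lap3 (0.11), Arpc5l (0.12), Rnaseh2c (0.13), Rwdd1 (0.14), Mbd3 (0.14) and Psma4 (0.14). The list holds a spliceosomal protein (Snrpc), an RNA polymerase II subunit (Polr2i) and a proteasome subunit (Psma4). With 5 groups, of which 2 share a library, this is a description of levels.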

How the data were processed

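The 4 libraries were analysed from the deposited gene-by-cell matrices, which hold whole-number UMI counts made by the authors with STAR 2.7.10b on GRCm39, per the submitters' processing notes. The gene annotation and strand setting are not given in the sources used here. Deposited UMIs were 171748476 in 11847 barcodes for MPC, 60415378 in 2993 for myoblasts, 199488336 in 10818 for ASC and 21434933 in 2705 for fiSC.

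Barcodes were kept from 1000 UMIs and 500 detected genes upward, if no more than 10% of their UMIs were mitochondrial. Doublets were marked with Scrublet in scanpy 1.11.5 and 836, 61, 295 and 66 cells removed in MPC, myoblasts, ASC and fiSC, which left 9059, 2351, 6448 and 2185. Each library was clustered alone on 2000 variable genes, without the members, the myogenic markers, G2/M genes and mitochondrial genes (30 components, 15 neighbours, resolution 0.5, igraph 0.11.9). Clusters were named from marker lists; the rule that turned markers into names was set after the clusters were seen. Counts were summed per group and scaled to CPM. The members and gene lists were chosen with earlier results of these data known. Named genes are, in each comparison, the 5 members with the highest and the 5 with the lowest ratio, those opposite in sign to the median by over 0.5, the 5 with the highest mean level, the 2 extremes at either end of each other list, and the 10 genes most like the summed members. Members of a count of 7 or fewer, and genes followed across clusters, promoters or neighbours, were chosen after their values were seen. Ratios used a pseudocount of 5 CPM and a minimum of 10 CPM. Alternatives included edgeR 4.0.16 TMM factors. The size rule was tested on simulated data. GENCODE vM21 gave only overlaps. No group had a second library, so the n of each is 1.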

Additional observations from a re-analysis of the deposited data

How the results depend on the processing

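Under 13 alternatives 0 values past the size rule turned round in direction; the MPC against myoblast median, near 0, changed sign under 2 of them. Of 189 values for the medians and counts, 167 stayed within the limits set (1.5 times for a count) and 22 moved. With TMM factors the myoblast against ASC median was -0.81, with 0 members higher and 20 lower, and the ASC myogenic against macrophage median was 0.80 with 27 higher. With a total that leaves out ribosomal protein and mitochondrial UMIs the medians were 2.35 for ASC against fiSC, 0.047 for MPC against myoblasts, -0.69 for myoblasts against ASC (0 higher, 12 lower), 1.72 for MPC against fiSC and 1.53 for ASC myogenic against macrophage-like cells. TMM also moved the median of all genes by 0.25 in ASC against fiSC. A pseudocount of 1 CPM gave 2.34 for ASC against fiSC and 1.74 for MPC against fiSC. MPC against myoblasts had medians of -0.18 in progenitor-like cells, -0.10 in cycling cells and 0.053 in non-cycling cells, where 1 member was lower. Myoblasts against ASC had 0 members higher in non-cycling cells and with the stricter cell filter, and a median of -0.31 over all retained cells. With doublets kept the ASC myogenic against macrophage median was 1.00. The cause was not tested. For single genes, 398 of 630 values stayed within their counting interval, 232 moved and 0 reversed. Cycling cells alone were not compared with fiSC, which held 10. No paired analysis was possible because each group is 1 library and nothing pairs the libraries.

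With 1 library per group the spread between animals or cultures is unknown. fiSC had the lowest depth, and 17 of the 74 measured members were below 10 CPM there, so their ratios rest on fewer than 189.8 fiSC UMIs each.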
